A study of Homo sapiens with 16 samples.

Results

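The genes described here are 10 by which microglia are commonly recognized or on which they depend, followed in a human cell line labelled as microglial. AIF1, ITGAM, CSF1R, CX3CR1, P2RY12, TMEM119, CD68, TREM2, TYROBP and CSF1 were taken by gene symbol as markers, receptors and ligands of microglia, and all 10 of the 10 had a row among the 25370 genes of the count table. The cells were HMC3, an established line labelled as microglial, expanded in medium with fetal bovine serum and treated in serum-free medium. RNA-seq was performed on 16 libraries, 2 for each of 8 conditions, to compare the transcriptional response to ketamine and its hydroxynorketamine (HNK) metabolites with and without estradiol. Vehicle cells received neither hormone nor drug. E2 cells received 0.1 nM estradiol. Cells of 3 drug conditions received 400 nM of ketamine, of (2S,6S)-HNK or of its mirror image (2R,6R)-HNK, and in 3 more, written E2+drug, the same 400 nM was given together with 0.1 nM estradiol. All 8 conditions shared the line, the medium and an exposure of 24 h. A single cultured line stands in for microglia here, without the neurons and astrocytes that surround these cells in the brain.

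Microglia are the resident macrophages of the brain, and they depend on signalling through the receptor CSF1R, which binds the growth factors CSF1 and IL34. CX3CR1, P2RY12 and TMEM119 are surface proteins prominent in microglia of the healthy brain, AIF1 encodes the widely used marker IBA1, and ITGAM encodes the integrin subunit CD11b. TREM2 is a lipid-sensing receptor that signals through the adaptor TYROBP, and CD68 is a glycoprotein of late endosomes and lysosomes.

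The libraries held between 55300614 and 81646165 counts, with a median of 62483034.5. At that depth 3 counts, the most that a count of 0 allows, correspond to 0.0367 CPM (counts scaled to the library total) in the largest library and 0.0542 CPM in the smallest. Intervals and limits of this kind cover counting error only. Of the counts from 1 to 9 in the table, 65.8% were even, against 49.9% of high counts, so 1 molecule may often have added 2 counts. Where that holds, the intervals are too narrow and the limits too low, since they treat each count as independent.

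Promoter windows from RefSeq (GRCh38.p14, 250 bases before to 50 after a start) were found for 8 of the 10 genes, AIF1, ITGAM, CSF1R, CX3CR1, P2RY12, CD68, TREM2 and TYROBP, in 13 windows. Shown are CD68, the most abundant of the 10, the 2 starts of CSF1R, and the upstream start of AIF1, whose counts were near 0. Capitals mark GAGGAA, a core sequence bound by the myeloid factor PU.1, or its reverse complement TTCCTC. The windows lie at chr17:7579388-7579687 (plus strand) for CD68, at chr5:150113316-150113615 and chr5:150086505-150086804 (minus strand) for CSF1R, and at chr6:31614984-31615283 (plus strand) for AIF1.
CD68: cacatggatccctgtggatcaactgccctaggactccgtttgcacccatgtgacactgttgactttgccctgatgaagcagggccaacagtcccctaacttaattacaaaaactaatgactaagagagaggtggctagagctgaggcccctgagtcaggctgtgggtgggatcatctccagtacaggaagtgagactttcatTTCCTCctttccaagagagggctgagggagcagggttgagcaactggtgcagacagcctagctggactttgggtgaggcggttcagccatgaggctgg
CSF1R, upstream start: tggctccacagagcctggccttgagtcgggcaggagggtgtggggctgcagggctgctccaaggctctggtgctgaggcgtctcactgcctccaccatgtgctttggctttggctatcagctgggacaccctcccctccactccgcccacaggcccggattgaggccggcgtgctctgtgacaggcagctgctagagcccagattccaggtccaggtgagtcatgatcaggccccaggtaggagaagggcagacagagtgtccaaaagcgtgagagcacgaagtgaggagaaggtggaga
CSF1R, downstream start: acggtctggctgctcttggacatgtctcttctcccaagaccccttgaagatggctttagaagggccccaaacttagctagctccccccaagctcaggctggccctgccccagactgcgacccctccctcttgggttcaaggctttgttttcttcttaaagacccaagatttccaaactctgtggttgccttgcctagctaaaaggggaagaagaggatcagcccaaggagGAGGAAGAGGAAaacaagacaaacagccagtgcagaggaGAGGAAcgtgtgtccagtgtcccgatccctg
AIF1, upstream start: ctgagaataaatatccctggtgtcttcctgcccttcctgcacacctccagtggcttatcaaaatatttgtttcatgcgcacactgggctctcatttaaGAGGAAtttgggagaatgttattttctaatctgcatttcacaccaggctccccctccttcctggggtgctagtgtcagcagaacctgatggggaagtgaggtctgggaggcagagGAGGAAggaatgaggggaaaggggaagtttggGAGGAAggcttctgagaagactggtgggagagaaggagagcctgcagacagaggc
The downstream CSF1R window and the AIF1 window each held 3 matches, the CD68 window 1 and the upstream CSF1R window 0. Of all 35116 windows of this length, 27.9% held at least 1 match and 0.649% held 3 or more. Across the 8 genes, 7 of the 13 windows held a match, and the TREM2 window held 0. These are matches of letters and carry no measurement of binding.

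Only 4 of the 10 genes, CD68, CSF1, CSF1R and TREM2, had a count above 0 in every library, and the same 4 exceeded 3 counts in every library and passed the filter on low counts. The other 6 genes, AIF1, ITGAM, CX3CR1, P2RY12, TMEM119 and TYROBP, gave 53 zeros among their 96 values, and their highest count in any library was 7. All 6 together summed to 125 counts over the 16 libraries.

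TYROBP, the adaptor through which TREM2 signals, was counted in 2 libraries, with 4 counts in vehicle replicate 1 and 2 counts in E2+(2S,6S)-HNK replicate 2. CX3CR1, the fractalkine receptor, was counted in 2 libraries as well, at 2 and 4 counts. Each gene had a pooled level of 0.00563 CPM (exact Poisson 95% interval 0.00207 to 0.0123). These 2 genes had the lowest CPM of the 10, although per kb of exon ITGAM (0.00396) lay below TYROBP (0.00677), and their counts fell in libraries of different treatments.

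P2RY12, a purinergic receptor, ranged from 0 to 7 counts and was above 0 in 9 libraries. TMEM119 ranged from 0 to 4 counts in 12 libraries, AIF1 from 0 to 4 counts in 10 libraries, and ITGAM from 0 to 5 counts in 8 libraries. No condition held the nonzero values of any of these 4 genes to itself. Of the 43 nonzero values of the 6 genes 36 were even, and 17 exceeded 3 counts. When every counted gene was kept in the fit, none of the 6 was called against vehicle by edgeR, and the lowest adjusted p was 0.08278, for P2RY12 in E2+(2R,6R)-HNK. Differences of these 6 genes between compounds, and their interactions with estradiol, were not tested.

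**Figure D1:**
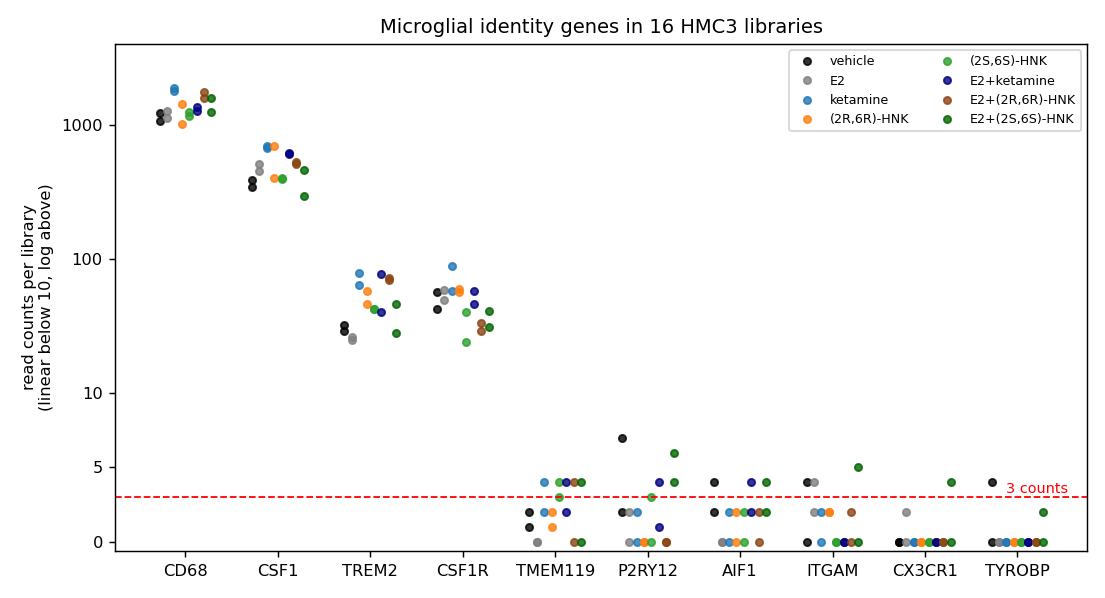
Read counts of each of the 10 genes (vertical axis, linear below 10 and logarithmic above) in the 16 libraries, coloured by condition, with a dashed line at 3 counts. CD68, CSF1, TREM2 and CSF1R stand above the line in every library, while no library exceeds 7 counts for the other 6 genes.

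A count of 0 in this table does not always mean that no RNA was made. EIF4A1, a translation factor gene next to CD68 that was looked up after the values were seen, had 0 counts in every library although its neighbour MPDU1 had 6670 to 13418. Among protein-coding genes whose exons share over 90% of their bases with another row of the table, 86 of 120 (71.7%) never exceeded 7 counts, compared with 3612 of 13978 (25.8%) of those that share none. The share was 8.53% among genes with up to 50% of their bases shared, the class of P2RY12 and of EIF4A1 itself (33.6% shared), and 27.9% from 50 to 90%. The cause of the zeros of EIF4A1 was not tested. Of the 10 genes, P2RY12 shared 9.41% of its exon bases with another row, MED12L on the opposite strand, and the other 9 shared 0. The low counts of AIF1, ITGAM, CX3CR1, TMEM119 and TYROBP stand at exons that no other row of the table covers. PRRC2A, which lies in the same gene-dense region as AIF1 and was also looked up afterwards, had 51577 to 93106 counts, whereas DDX39B of the same region, with 30.8% of its exon bases shared, had 11 to 55.

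CD68 has a reservation of a different kind. In current gene models 1765 of its 2163 exon bases are shared with a long non-coding RNA on the same strand, and 148 with another on the opposite strand, so reads of CD68 and of these transcripts cannot be told apart. The strand setting of the counting is not given in the sources used here.

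Levels can be compared between genes per kilobase of exon. CD68 stood at 9.47 CPM per kb, CSF1 at 1.42, TREM2 at 0.658 and CSF1R at 0.141, as means over 16 libraries. CD68 was thus 6.68 times as abundant as CSF1 on this scale, and the ligand CSF1 was 10.1 times as abundant as its receptor CSF1R. On mean CPM, CD68 lay above 72.0% of all genes in the table and CSF1 above 62.1%, whereas CSF1R and TREM2 each lay above 48.0%. TREM2 was thus counted at 25 to 79 reads a library while its partner TYROBP never exceeded 4.

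The label of the line was checked against further genes that mark microglia and other cells. PTPRC, the pan-leukocyte phosphatase CD45, had at most 3 counts in any library. SPI1, which encodes PU.1, had at most 2 counts, IRF8 at most 4 and SALL1, a transcription factor of microglia, at most 2. C1QA, a complement subunit made abundantly by microglia, was at 0 in every library, as were C1QC, CD163 and FCGR3A. These defining markers of microglia and macrophages were at or near 0, together with 6 of the 10 genes listed at the outset. C1QA and FCGR3A share 39.6% and 64.9% of their transcript bases with other genes in exact stretches of 50 bases or more, so their zeros are less certain, while SPI1 and IRF8 share 0. Sharing went with both low and high counts. MRC1 (99.2% shared) and CSF2RA (100%) had at most 8 and 10 counts, whereas CD68 (90.2%) and KRT18 (61.9%) had at least 1007 and 21747.

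Of all 25370 genes, 8254 (32.5%) never exceeded 7 counts, as did 6 of the 10 identity genes. Of the 18 leukocyte and macrophage genes, 10 never exceeded 7 counts and CD14, a co-receptor for bacterial lipopolysaccharide, was the most abundant at 2.52 CPM. Their summed level ran from 3.08 to 6.41 CPM across libraries. Among 10 myeloid transcription factors, RUNX1 (102 CPM) and CEBPB (79.9 CPM), which many cell types express, were the most abundant and 4 never exceeded 7 counts. The 14 further microglial receptors and secreted genes were divided in the same way. AXL, a receptor tyrosine kinase for GAS6 that is not restricted to microglia, reached 179 CPM per kb and its relative MERTK 2.06 CPM per kb, GAS6 reached 11.2 CPM per kb, and 5 of the 14 genes never exceeded 7 counts.

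Genes of mesenchymal cells stood far higher. The 16 fibroblast and mural cell markers summed to between 21440 and 26670 CPM, with FN1 the most abundant at 14800 CPM and COL1A1 at 4540 CPM. PDGFRB, a receptor of mural cells and fibroblasts, was 262 times as abundant as CSF1R per kb. COL3A1, DCN and LUM, also markers of fibroblasts, had at most 6, 12 and 4 counts, so the list was not uniformly high. The part that such cells could have in the levels of the 10 genes was not tested.

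Lists of other cell types were uneven. GJA1 reached 123 CPM among 7 astrocyte markers, of which AQP4 was at 0, and TUBB3 reached 105 CPM among 7 neuron markers, of which STMN2 was at 0. The 6 oligodendrocyte markers peaked at 3.07 CPM for MBP, the 6 endothelial markers at 1.72 CPM for VWF, and the 6 epithelial markers at 512 CPM for KRT18, with KRT8 at 70.5 CPM. Of 15 genes of unrelated tissues, 7 were at 0 in every library and the highest, CPA1, a pancreatic enzyme, averaged 0.0228 CPM per kb. AIF1, ITGAM, CX3CR1, P2RY12, TMEM119 and TYROBP, at 0.00144 to 0.0196 CPM per kb, all lay below CPA1. In contrast CSF1R and TREM2, at 0.141 and 0.658 CPM per kb, lay above every gene of the unrelated list.

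**Figure D2:**
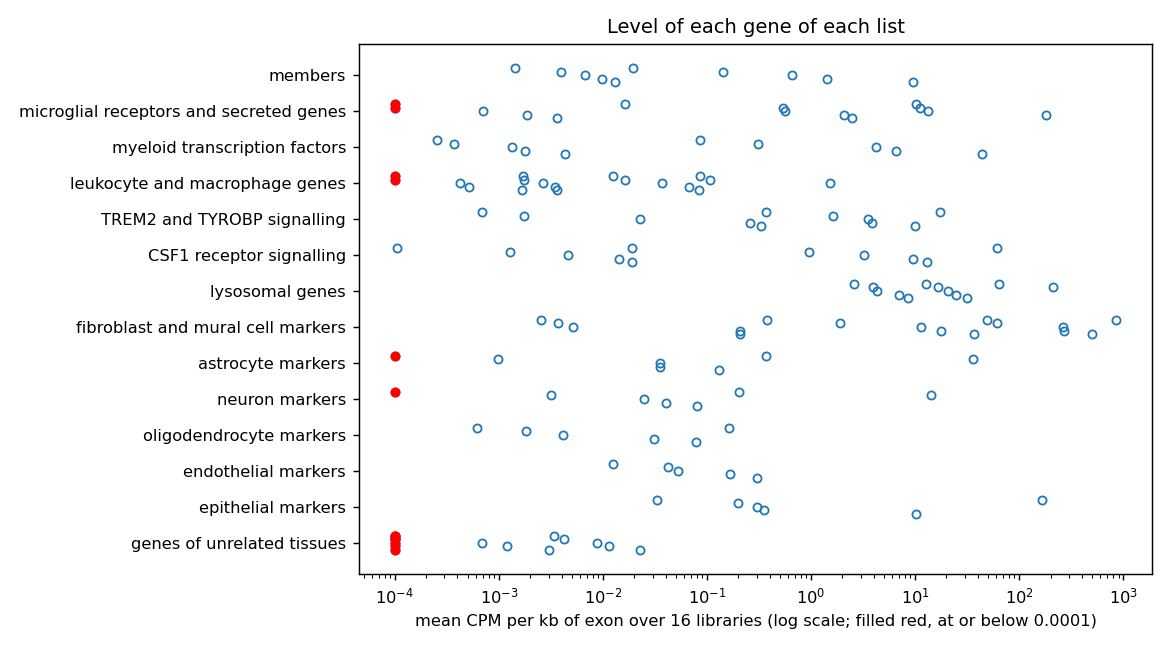
Mean CPM per kb of exon (horizontal axis, log scale) over 16 libraries for each gene of each list with a known exon length, with the 10 microglial identity genes in the row named members and filled red points at or below 0.0001. Fibroblast and mural cell markers reach 858 CPM per kb (FN1), while the highest leukocyte or macrophage gene, CD14, reaches 1.53.

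Each treatment was compared with vehicle to ask which of the 4 genes that could be tested responded. A gene was called at a Benjamini-Hochberg adjusted p under 0.05 in the quasi-likelihood fit of edgeR, and the 7 treatments share the same 2 vehicle libraries. Of the 4 genes, 1 was called for E2, against 62.5% of all 16004 tested genes. Ketamine gave 2 of 4 (59.3% of all genes), while (2R,6R)-HNK gave 1 (66.6%) and (2S,6S)-HNK also 1 (67.9%). E2+ketamine gave 3 of 4 (71.7% of all genes) and E2+(2R,6R)-HNK gave 4 (69.7%), or 3 by DESeq2. For E2+(2S,6S)-HNK 0 were called by edgeR, against 59.7% of all genes, with 2 at an unadjusted p under 0.05 and 0 called by DESeq2. Most tested genes were called in each of these comparisons, so a call is not particular to these 4. All 4 genes differed across the 8 conditions, as did 82.1% of all genes. The counts against vehicle moved with a correction for GC content and length. It gave 0 of 4 in ketamine, 1 in E2+ketamine, 2 in E2+(2R,6R)-HNK and 2 in E2+(2S,6S)-HNK. E2, (2R,6R)-HNK and (2S,6S)-HNK kept a count of 1, each for a different gene than before. Of all 16004 genes the corrected fit called from 6107 (E2) to 9487 (E2+(2R,6R)-HNK).

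With the further requirement of an absolute log2 fold change of at least 1, 0 of the 4 genes were called by edgeR in any of the 7 comparisons with vehicle. Other settings passed some: TREM2 in E2+ketamine by DESeq2 (1.02) and with upper-quartile scaling (1.03), TREM2 in E2+(2R,6R)-HNK with upper-quartile scaling (1.02), and CSF1R in E2+(2R,6R)-HNK with the correction for GC content and length (-1.38). CSF1R there, and TREM2 in E2+ketamine, also passed in some fits without 1 library. The same requirement left 1.81% of all genes in E2, 3.56% in ketamine, 9.08% in (2S,6S)-HNK and 3.75% in (2R,6R)-HNK. With estradiol added to the drug it left 11% in E2+ketamine, 5.85% in E2+(2S,6S)-HNK and 11.5% in E2+(2R,6R)-HNK. P-values measure the spread between libraries, since the labels do not say whether replicate libraries came from separate cultures. In bulk RNA, a change in cells that make a transcript and in transcript per cell cannot be told apart.

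CSF1, the ligand, showed the clearest order of conditions. In GRCh37 the gene lies at chr1:110452864-110473614 (plus strand). It stood at 6.28 and 5.69 CPM in vehicle, 8.21 and 7.71 in E2, 8.54 and 8.40 in ketamine, 8.89 and 6.93 in (2R,6R)-HNK, and 7.07 and 6.64 in (2S,6S)-HNK. With estradiol it stood at 9.84 and 9.67 CPM in E2+ketamine, 7.04 and 7.09 in E2+(2R,6R)-HNK, and 6.00 and 4.88 in E2+(2S,6S)-HNK. On CPM over library totals, the E2+ketamine libraries were the highest of all 16 and overlapped no other condition. Ketamine came next by its mean but lay within the range of (2R,6R)-HNK, and the E2+(2S,6S)-HNK libraries overlapped those of vehicle at the bottom. Between top and bottom E2, (2R,6R)-HNK, E2+(2R,6R)-HNK and lastly (2S,6S)-HNK formed a run in which each overlapped the next. The edgeR fit scales libraries by TMM, and there ketamine (0.422 against vehicle) and (2R,6R)-HNK (0.423) were level. The TMM factors were 1.0627 and 1.0712 in E2+(2S,6S)-HNK and 0.9933 and 0.9912 in vehicle, so their overlap was read on unscaled CPM alone.

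CSF1 rose in E2+ketamine by a log2 fold change of 0.78 ± 0.11 (SE, n = 2 and 2 libraries; adjusted p = 4.848e-09, edgeR). It also rose in E2 by 0.40 ± 0.11 (adjusted p = 0.001307), in ketamine by 0.42 ± 0.11 (adjusted p = 0.0005091), in (2R,6R)-HNK by 0.42 ± 0.11 (adjusted p = 0.000506) and in E2+(2R,6R)-HNK by 0.24 ± 0.11 (adjusted p = 0.04448), a call that DESeq2 did not make (0.27, adjusted p = 0.06668). In (2S,6S)-HNK the log2 difference was 0.21 (adjusted p = 0.09312) and in E2+(2S,6S)-HNK it was -0.23 (adjusted p = 0.06781). These calls for CSF1 depended on the processing. With a correction for GC content and length, none of these rises stayed called by edgeR, and the log2 fold change became 0.22 in E2+ketamine (adjusted p = 0.06717), 0.04 in E2, 0.11 in ketamine and 0.01 in (2R,6R)-HNK, and in E2+(2R,6R)-HNK it turned to -0.24 (adjusted p = 0.04568). In that fit CSF1 also fell in E2+(2S,6S)-HNK, by 0.47 (adjusted p = 0.0001516). CSF1 exons are 57.8% GC. Without (2R,6R)-HNK replicate 1 the (2R,6R)-HNK value was 0.22 (adjusted p = 0.1316), and the call in E2+(2R,6R)-HNK was lost without either of its own libraries or without vehicle replicate 2.

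CSF1R is the receptor for CSF1. In GRCh37, the build of the counts, CSF1R lies at chr5:149432854-149492935 (minus strand). It stood at 0.682 and 0.948 CPM in vehicle, 0.948 and 0.832 in E2, 1.09 and 0.731 in ketamine, 0.767 and 0.981 in (2R,6R)-HNK, and 0.434 and 0.661 in (2S,6S)-HNK. With estradiol it stood at 0.732 and 0.925 CPM in E2+ketamine, 0.438 and 0.401 in E2+(2R,6R)-HNK, and 0.534 and 0.516 in E2+(2S,6S)-HNK. On CPM over library totals, the upper 5 conditions, ketamine, E2, (2R,6R)-HNK, E2+ketamine and vehicle, each overlapped the next. (2S,6S)-HNK, E2+(2S,6S)-HNK and E2+(2R,6R)-HNK lay below all vehicle libraries. In the edgeR fit, scaled by TMM, ketamine (0.084 against vehicle) instead lay below E2 (0.115), E2+ketamine (0.105) and (2R,6R)-HNK (0.101). CSF1R fell by 0.95 ± 0.34 on the log2 scale in E2+(2R,6R)-HNK (SE, n = 2 and 2 libraries; adjusted p = 0.01218, edgeR). With the GC content and length correction this fall was -1.38 (adjusted p = 0.0003933), and falls were also called in (2S,6S)-HNK and E2+(2S,6S)-HNK, at -0.94 in each (adjusted p = 0.01529 and 0.01394). At 24 to 89 counts a library the receptor was measured with wide intervals, and without vehicle replicate 2 or E2+(2R,6R)-HNK replicate 2 the call in E2+(2R,6R)-HNK was lost (log2 fold change from -1.17 to -0.69 over the libraries left out).

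TREM2 was counted at 32 and 29 reads in vehicle, 26 and 25 in E2, 79 and 64 in ketamine, 58 and 46 in (2R,6R)-HNK, and 42 and 42 in (2S,6S)-HNK. With estradiol it was counted at 77 and 40 reads in E2+ketamine, 72 and 70 in E2+(2R,6R)-HNK, and 28 and 46 in E2+(2S,6S)-HNK. In CPM the order ran from E2+(2R,6R)-HNK (0.962 ± 0.00912, SD, n = 2) through E2+ketamine (0.932 ± 0.416), ketamine (0.887 ± 0.114), (2R,6R)-HNK (0.766 ± 0.0357), (2S,6S)-HNK (0.727 ± 0.0464), E2+(2S,6S)-HNK (0.566 ± 0.284) and vehicle (0.501 ± 0.0262) to E2 (0.421 ± 0.00505). The upper 3 conditions overlapped in sequence, the E2+ketamine and E2+(2S,6S)-HNK libraries spread widely, and E2 lay below vehicle without overlap. The edgeR fit, scaled by TMM, put E2+ketamine (0.97 against vehicle) above E2+(2R,6R)-HNK (0.94), so the top of the order depended on the scaling. TREM2 rose in E2+ketamine by a log2 fold change of 0.97 ± 0.35 (adjusted p = 0.01146, edgeR) and in E2+(2R,6R)-HNK by 0.94 ± 0.34 (adjusted p = 0.01314). In ketamine alone the value was 0.74 (adjusted p = 0.05778), with an interval of 0.06 to 1.43. TREM2 was called in ketamine under 4 alternatives, at 0.83 with upper-quartile scaling, 0.76 with no filter on low counts, 0.78 with halved counts and 0.77 with the compared groups alone (adjusted p from 0.03237 to 0.03515), which made 3 of 4 genes called there. It was not called by DESeq2 (0.78), with a mean of at least 10 counts (0.75), or with the correction for GC content and length (0.51, adjusted p = 0.2331). Of all genes in ketamine, upper-quartile scaling called 9693 of 16004, no filter 9476 of 21050 and halved counts 9624 of 14894. With the GC content and length correction the TREM2 rises in E2+ketamine and E2+(2R,6R)-HNK were 0.47 (adjusted p = 0.276) and 0.59 (adjusted p = 0.138), and neither was called. Without E2+ketamine replicate 1 the E2+ketamine value was 0.43 (adjusted p = 0.3806), without vehicle replicate 2 both calls were lost, and TREM2 exons are 57.4% GC.

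CD68, the lysosomal glycoprotein, varied least. It stood at 17.3 and 20.3 CPM in vehicle, 20.2 and 19.1 in E2, 23.1 and 22.6 in ketamine, 18.3 and 17.3 in (2R,6R)-HNK, and 20.9 and 20.6 in (2S,6S)-HNK. With estradiol it stood at 21.5 and 20.3 CPM in E2+ketamine, 23.2 and 22.1 in E2+(2R,6R)-HNK, and 20.8 and 20.6 in E2+(2S,6S)-HNK. On CPM over library totals, ketamine and E2+(2R,6R)-HNK overlapped each other at the top, and E2+ketamine, (2S,6S)-HNK and E2+(2S,6S)-HNK formed a middle run. E2, vehicle and (2R,6R)-HNK overlapped in turn at the bottom, where the 2 vehicle libraries lay further apart than those of any other condition. The order differed in the edgeR fit, which scales libraries by TMM. There E2+ketamine (0.237 against vehicle) lay above ketamine (0.205).

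CD68 rose by log2 fold changes of 0.21 ± 0.07 in ketamine (SE; adjusted p = 0.005316, edgeR), 0.16 ± 0.07 in (2S,6S)-HNK (adjusted p = 0.03323), 0.24 ± 0.07 in E2+ketamine (adjusted p = 0.001363) and 0.27 ± 0.07 in E2+(2R,6R)-HNK (adjusted p = 0.0002205). None of these rises of CD68 survived the correction for GC content and length, which gave -0.01, -0.13, -0.21 and -0.05 in the same order. In that fit CD68 instead fell in E2+ketamine (adjusted p = 0.004019), in E2 by 0.20 (adjusted p = 0.0131) and in (2R,6R)-HNK by 0.41 (adjusted p = 2.112e-07). Without vehicle replicate 1 the uncorrected rises in ketamine, (2S,6S)-HNK, E2+ketamine and E2+(2R,6R)-HNK were all no longer called, with log2 fold changes of 0.09, 0.04, 0.12 and 0.16, and the (2S,6S)-HNK call was also lost without either (2S,6S)-HNK library. The direction of CD68 against vehicle therefore turned with the processing.

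**Figure D3:**
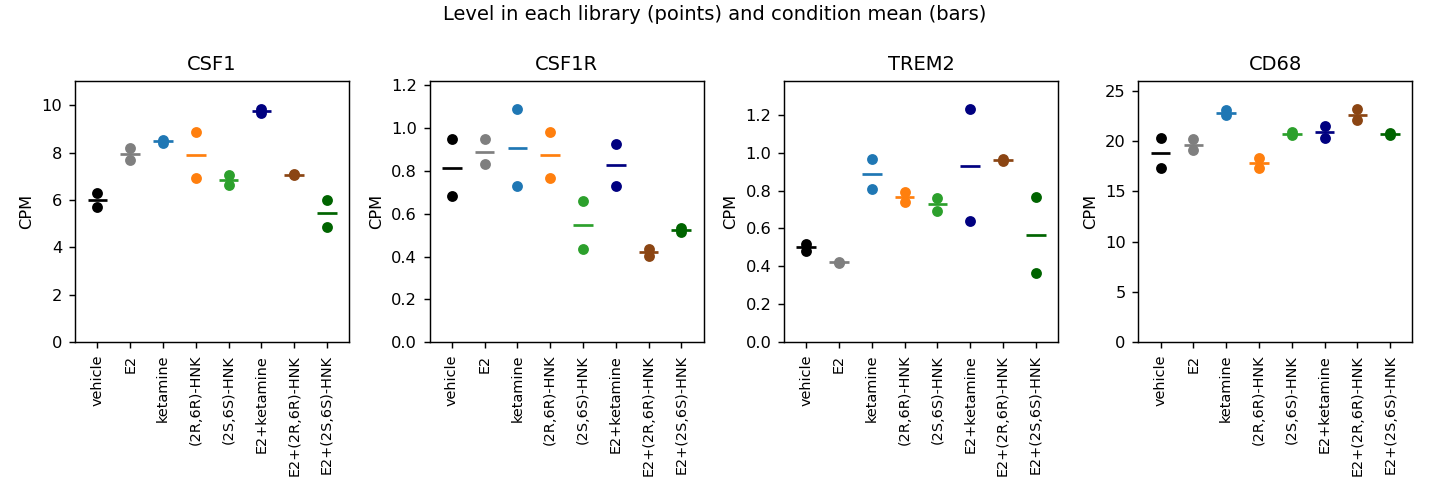
CPM of CSF1, CSF1R, TREM2 and CD68 in each library (points) with the mean of each condition (bars), vertical axes starting at 0. CSF1 is highest in E2+ketamine (9.75 CPM on average), and CSF1R is lowest in E2+(2R,6R)-HNK (0.420 CPM).

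**Figure D4:**
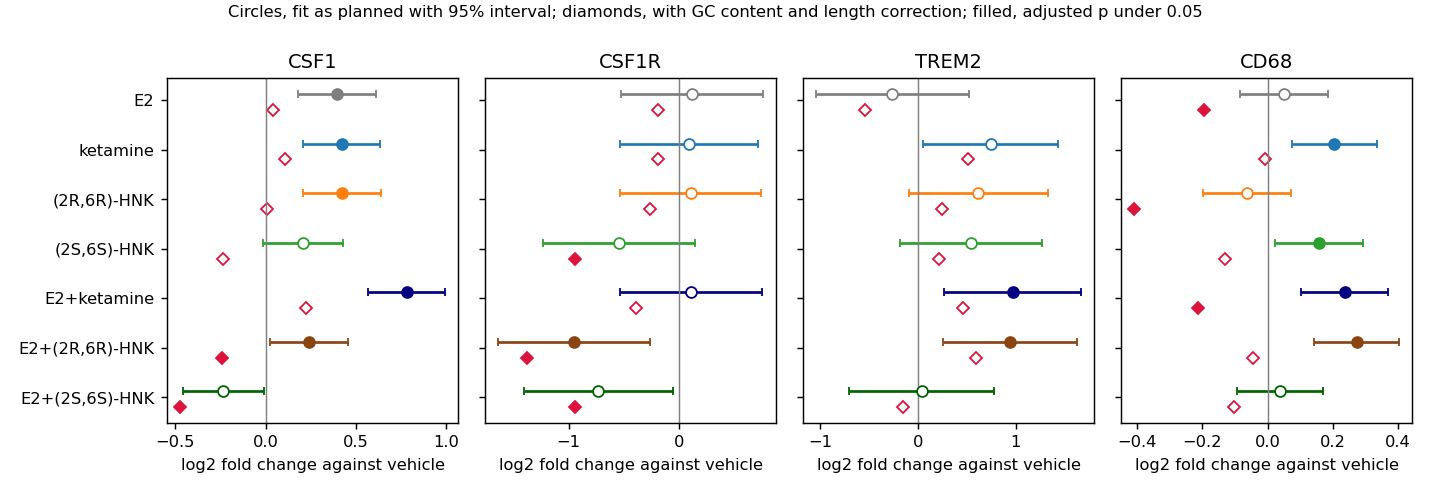
Log2 fold change against vehicle (horizontal axis) of the 4 tested genes in each treatment, as circles with 95% intervals, and the value with a correction for GC content and length as diamonds, filled where the adjusted p was under 0.05. The diamonds lie left of the circles in each panel, and CSF1 has 5 filled circles but filled diamonds only below 0.

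The compounds were compared pairwise at the matched dose of 400 nM, in 3 pairs without and 3 pairs with estradiol. Between the mirror-image metabolites CD68 was lower with (2R,6R)-HNK by 0.22 on the log2 scale (interval -0.36 to -0.09; adjusted p = 0.00548, edgeR; not called without (2R,6R)-HNK replicate 2), 1 of the 4 genes called against 43.5% of all genes. CSF1 did not pass (interval 0 to 0.43), nor did CSF1R (-0.03 to 1.32) or TREM2 (-0.61 to 0.75), although with the correction for GC content and length CSF1 was called at 0.24 (adjusted p = 0.04953). In the presence of estradiol 3 of 4 were called, against 54% of all genes. There CSF1 was higher with (2R,6R)-HNK by 0.47 (interval 0.26 to 0.69; adjusted p = 0.0001717), TREM2 by 0.91 (0.24 to 1.58; adjusted p = 0.01852) and CD68 by 0.24 (0.11 to 0.36; adjusted p = 0.001428). CSF1R did not pass (interval -0.93 to 0.50). With the GC content and length correction these 3 were no longer called, at 0.23, 0.74 and 0.06, and TREM2 lost its call without either E2+(2R,6R)-HNK library or without E2+(2S,6S)-HNK replicate 1.

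Between ketamine and (2R,6R)-HNK 1 of 4 genes was called, against 45.4% of all genes, and it was CD68, higher with ketamine by 0.27 (interval 0.14 to 0.40; adjusted p = 0.0004636, edgeR) and by 0.40 with the GC content and length correction. CSF1 did not pass (interval -0.20 to 0.20), nor did CSF1R (-0.63 to 0.59) or TREM2 (-0.52 to 0.77). Between ketamine and (2S,6S)-HNK 0 of 4 were called by edgeR, against 46.1% of all genes, with 1 at an unadjusted p under 0.05 and 0 by DESeq2. The interval was 0.004 to 0.42 for CSF1, -0.08 to 0.18 for CD68, -0.03 to 1.29 for CSF1R and -0.46 to 0.86 for TREM2, and with the correction CSF1 was called at 0.34 (adjusted p = 0.00436). A p that misses the threshold does not show that the compounds act alike.

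With estradiol, ketamine differed from (2R,6R)-HNK in 2 of 4 genes, against 52% of all genes. CSF1 was higher with E2+ketamine by 0.54 (interval 0.34 to 0.75; adjusted p = 1.127e-05, edgeR) and CSF1R by 1.05 (interval 0.37 to 1.74; adjusted p = 0.0076), and both stayed called with the correction, at 0.46 and 0.98, although CSF1R was not called without E2+ketamine replicate 2. CD68 (interval -0.17 to 0.09) and TREM2 (-0.60 to 0.66) did not pass, but CD68 was called with the correction at -0.17 (adjusted p = 0.02128). E2+ketamine differed from E2+(2S,6S)-HNK in 4 of 4 genes, against 66.8% of all genes. CSF1 was higher with E2+ketamine by 1.02 (interval 0.80 to 1.23; adjusted p = 4.415e-12), and its libraries at 9.84 and 9.67 CPM stood clear of 6.00 and 4.88. CSF1 kept this call with the correction at 0.70 (adjusted p = 2.167e-08), whereas TREM2 (0.94, then 0.61), CSF1R (0.84, then 0.55) and CD68 (0.20, then -0.11) did not keep theirs. Before correction CD68 and TREM2 also lost their calls without E2+ketamine replicate 1, TREM2 without E2+(2S,6S)-HNK replicate 1, and CSF1R without E2+ketamine replicate 2 or either E2+(2S,6S)-HNK library. The intervals before correction were 0.17 to 1.51 for CSF1R, 0.07 to 0.33 for CD68 and 0.25 to 1.62 for TREM2.

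Under the further limit on fold change, CSF1R was called between E2+ketamine and E2+(2R,6R)-HNK, where 3.09% of all genes were, and CSF1 between E2+ketamine and E2+(2S,6S)-HNK, where 5.62% were. Both fell under the limit with the GC content and length correction (0.98 and 0.70), CSF1R also without E2+ketamine replicate 2 (0.87) or E2+(2R,6R)-HNK replicate 2 (0.99), and CSF1 also with upper-quartile scaling (0.97) or without E2+(2S,6S)-HNK replicate 2 (0.88). In the other pairs that limit left 0 of the 4 genes by edgeR. It left 0.844% of all genes between ketamine and (2R,6R)-HNK, 1.77% between ketamine and (2S,6S)-HNK, 2.53% between the mirror-image metabolites, and 0.662% between the last pair with estradiol.

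Whether estradiol altered the effect of a drug was tested as an interaction. For ketamine 0 of 4 genes were called by edgeR, against 37.5% of all genes, with 0 at an unadjusted p under 0.05 and 0 by DESeq2. For (2R,6R)-HNK 3 of 4 were called, against 56.6% of all genes: the drug's log2 effect with estradiol exceeded that without it by 0.29 for CD68 (adjusted p = 0.007621), and was smaller for CSF1 (-0.58, adjusted p = 0.0008251) and for CSF1R (-1.17, adjusted p = 0.02872). For (2S,6S)-HNK 1 of 4 was called, CSF1 at -0.84 (adjusted p = 4.71e-06), against 65.1% of all genes. With the GC content and length correction CSF1 was called in neither interaction (-0.29, adjusted p = 0.1009, and -0.28, adjusted p = 0.137), nor was CSF1R (-0.92, adjusted p = 0.1089), while CD68 kept its call for (2R,6R)-HNK at a larger value, 0.56 (adjusted p = 3.745e-07). For (2S,6S)-HNK the CD68 interaction, -0.17 and not called without the correction, became 0.23 and was called with it (adjusted p = 0.04374). For (2R,6R)-HNK the CD68 interaction was not called without vehicle replicate 2. The CSF1R interaction for (2R,6R)-HNK was lost without vehicle replicate 1, E2 replicate 1, (2R,6R)-HNK replicate 2 or E2+(2R,6R)-HNK replicate 2. With the fold limit as well, CSF1R alone was called for (2R,6R)-HNK, beside 5.68% of all genes, and 0 of the 4 genes for ketamine or (2S,6S)-HNK by edgeR, beside 1.82% and 10.7%.

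The pathways around these genes were present in part. Around CSF1R, the second ligand IL34 had at most 8 counts, whereas the adaptor GRB2 stood at 287 CPM. Of the related colony-stimulating factors, which bind other receptors, CSF2 and CSF3 had at most 4 counts each, and CSF2RB, a subunit of the CSF2 receptor, stood at 16 CPM. All 5 tested genes of this list of 11 differed across conditions, as did 82.1% of all genes. In ketamine 2 rose and 1 fell, with a median log2 fold change of 0.03, against -0.02 over all genes, of which 26.8% rose and 32.5% fell. With the GC content and length correction 2 of the 5 rose and 2 fell. In (2R,6R)-HNK 1 rose and 3 fell (median -0.27; 0 and 5 with the correction), in E2+(2S,6S)-HNK 1 rose and 4 fell (1 and 2 with it), and in the remaining treatments 2 or 3 rose and 1 or 2 fell (0 or 1 and from 2 to 4 with it). Around TREM2 and TYROBP, the kinase SYK, which TYROBP recruits, had at most 2 counts, while APOE, a lipoprotein ligand of TREM2, stood at 7.65 CPM and INPP5D, a phosphatase of the same pathway, at 2.28 CPM. Of 9 tested genes 4 rose and 3 fell in ketamine, with a median of 0.38, and with the correction 3 rose and 2 fell. In the other 6 treatments from 2 to 4 rose and 2 or 3 fell, with or without the correction. In ketamine against vehicle, APOE rose by 1.52 ± 0.12 (adjusted p = 1.758e-16, edgeR) and INPP5D by 1.52 ± 0.20 (adjusted p = 5.388e-09). ADAM10, a protease that sheds TREM2, fell there by 0.72 ± 0.04 (adjusted p = 2.804e-20). These changes were not particular to ketamine. APOE rose in every treatment, from 0.999 in E2 to 1.786 in E2+ketamine. ADAM10 fell in every treatment, from -0.692 in E2+(2S,6S)-HNK to -1.218 in E2+ketamine. INPP5D was not called in E2 (0.445) or (2R,6R)-HNK (0.485) but rose in all the others, most in E2+(2R,6R)-HNK (1.964). These values are without the GC content and length correction.

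All 12 lysosomal genes tested were far above the 6 genes near 0, led by CD63 at 509 CPM, and all differed across conditions, beside 82.1% of all genes. LAMP1 was 3.34 times as abundant as CD68 per kb. In ketamine 7 rose and 2 fell, with a median of 0.21, beside 26.8% and 32.5% of all genes. With the GC content and length correction 6 rose and 2 fell, with a median of 0.10. Of all 16004 genes, 9492 were called in ketamine without the correction and 7814 with it. In the other 6 treatments, without the correction, from 4 lysosomal genes in E2+(2S,6S)-HNK to 9 in E2 and in E2+(2R,6R)-HNK rose, and from 2 to 4 fell. With the correction the excess of rises was smaller or gone, at 4 rising and 4 falling in E2 (median -0.06), 6 and 6 in E2+(2S,6S)-HNK, 7 and 5 in (2S,6S)-HNK and in E2+(2R,6R)-HNK, 5 and 4 in (2R,6R)-HNK, and 5 and 3 in E2+ketamine. With the correction, between 6107 (E2) and 9487 (E2+(2R,6R)-HNK) of the 16004 genes were called in those 6 treatments. Over all genes, without the correction, from 24% to 34.3% rose and from 32.7% to 37.4% fell in those treatments. Of the leukocyte and macrophage genes 7 were tested, and 1 rose in ketamine, CD14 by 1.16 ± 0.18 (adjusted p = 2.834e-07, edgeR). CD14 was also called as rising in E2 (0.518), (2R,6R)-HNK (0.836), E2+ketamine (0.991) and E2+(2R,6R)-HNK (0.535). It was not called in (2S,6S)-HNK (0.413) or E2+(2S,6S)-HNK (0.228). With the GC content and length correction 0 of the 7 genes, CD14 among them, rose in E2, (2R,6R)-HNK, E2+ketamine or E2+(2R,6R)-HNK. In that fit 1 of the 7 rose in ketamine and 1 in E2+(2S,6S)-HNK. Among the further microglial receptors 3 of 8 tested genes rose and 4 fell in ketamine, with AXL falling by 0.18 ± 0.02 (adjusted p = 7.797e-11) and GAS6 rising by 0.18 ± 0.04 (adjusted p = 0.000187). GAS6 rose more in every other treatment, from 0.284 in E2+(2S,6S)-HNK to 0.816 in E2+ketamine, without the correction. AXL also fell in E2+ketamine (-0.045), E2+(2R,6R)-HNK (-0.146) and E2+(2S,6S)-HNK (-0.328), and was not called in E2, (2R,6R)-HNK or (2S,6S)-HNK. Of 5 tested myeloid transcription factors 1 rose in ketamine, CEBPB by 0.42 ± 0.05 (adjusted p = 2.873e-10), and 1 fell. CEBPB also rose in the other treatments, by 0.37 in (2S,6S)-HNK to 1.046 in E2+ketamine, except in E2+(2S,6S)-HNK (0.047, not called). Of 13 tested fibroblast and mural cell markers 7 rose and 5 fell in ketamine without the correction, and 3 rose and 7 fell with it. In the other 6 treatments, without the correction, from 3 to 9 of these markers rose and from 2 to 4 fell, and of the further microglial receptors 2 or 3 rose and 3 or 4 fell. With the correction these were from 2 to 5 and from 2 to 9 for the markers, and from 1 to 4 and from 2 to 4 for the receptors.

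Genes whose condition means most resembled those of the 2 more abundant genes were sought among 10377 tested genes, over the 8 condition means of log2 CPM, which come from shared libraries. For CSF1 these were CDC42EP4 (Pearson r = 0.993), FOXRED2 (r = 0.99) and NUAK2 (r = 0.986). For CD68 they were CMIP (r = 0.929), BFAR (r = 0.915) and GPR161 (r = 0.913). These values describe 8 points and were not tested.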

How the data were processed

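Whole-number counts per gene symbol were deposited by the authors, made from 100 bp paired reads of 16 HMC3 libraries aligned to hg19; the submitters' processing notes name TopHat2 2.0.14, Bowtie2 2.2.6 and featureCounts 1.4.6. The study's methods give 8 samples to a lane, but the lane of each library is not given in the sources used here. Lane and condition therefore cannot be told apart. The members and gene lists were chosen with earlier results of these data known. Counts were fitted over all genes with edgeR 4.0.16 (R 4.3.3; TMM, filterByExpr with a minimum count of 10, quasi-likelihood test, 8 condition means, Benjamini-Hochberg adjustment within each comparison), which kept 16004 genes. CPM used the deposited totals, from 55300614 to 81646165; exon length and GC content came from GENCODE v44 models on GRCh37 and were found for 23032 of 25370 symbols.

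Genes named were the 10 members, the 4 most abundant genes of each list together with PTPRC, SPI1, IRF8, SALL1, C1QA, CD14, IL34 and MERTK, and the 3 genes most like each member above 1 CPM; other genes named were chosen after their values were seen. The code was tested on simulated data. Libraries of 1 condition differed beyond sampling noise (chi-square per degree of freedom from 2.669 to 4.345, or from 1.348 to 2.233 with counts halved). Alternatives were DESeq2 1.42.0, upper-quartile scaling, other filters, a replicate block, a loess correction for GC content and length, halved counts, the compared groups alone, and each library left out.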

Additional observations from a re-analysis of the deposited data

Results flagged for a closer look

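In 4 instances the effect of a metabolite differed with and without estradiol by the interaction test of edgeR. For (2R,6R)-HNK the difference was 0.285 for CD68, -0.579 for CSF1 and -1.165 for CSF1R on the log2 scale. For (2S,6S)-HNK it was -0.84 for CSF1. Only the CD68 value stayed called with the GC content and length correction, and without vehicle replicate 2 it was 0.165 (adjusted p = 0.1725). The cause was not tested. Groups of 2 libraries are too small for the search for single deviating libraries.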

How the results depend on the processing

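Of 27 called log2 fold changes, all 27 kept their direction and call with upper-quartile scaling, no filter, a mean of at least 10 counts, halved counts, the compared groups alone and the replicate block, and DESeq2 kept 26 (CSF1 in E2+(2R,6R)-HNK became 0.268, adjusted p = 0.06668). With the GC content and length correction 7 kept their call, 14 became weaker and 6 changed sign. Detection stayed at 4 genes under every setting. The cause of the changes below was not tested. In the lists that follow, a treatment named alone was compared with vehicle. With the setting upper-quartile normalization the log2 fold change had the opposite sign: for CD68 it was 0.015 in (2R,6R)-HNK, and for CSF1 it was 0.006 in ketamine against (2R,6R)-HNK. The number of the 4 genes called with the setting upper-quartile normalization was 2 in (2S,6S)-HNK, beside 10899 of all 16004. With the setting no filter on low counts the log2 fold change had the opposite sign: for CSF1 it was 0.006 in ketamine against (2R,6R)-HNK. The number of the 4 genes called with the setting no filter on low counts was 1 in E2+(2S,6S)-HNK, beside 9442 of the 21050 genes tested there. With the setting mean of at least 10 counts the log2 fold change of CSF1 in ketamine against (2R,6R)-HNK, -0.001 before, was 0 to 3 decimals. With the setting replicate block the log2 fold change had the opposite sign: for CSF1 it was 0.007 in ketamine against (2R,6R)-HNK. With the setting GC content and length correction the log2 fold change had the opposite sign: for CSF1R it was -0.196 in E2, -0.194 in ketamine, -0.265 in (2R,6R)-HNK, -0.392 in E2+ketamine, 0.07 in ketamine against (2R,6R)-HNK, and for CD68 it was -0.196 in E2, -0.009 in ketamine, -0.132 in (2S,6S)-HNK, -0.214 in E2+ketamine, -0.046 in E2+(2R,6R)-HNK, -0.103 in E2+(2S,6S)-HNK, -0.111 in E2+ketamine against E2+(2S,6S)-HNK, and for TREM2 it was -0.15 in E2+(2S,6S)-HNK, -0.124 in E2+ketamine against E2+(2R,6R)-HNK, and for CSF1 it was -0.234 in (2S,6S)-HNK, -0.24 in E2+(2R,6R)-HNK, 0.099 in ketamine against (2R,6R)-HNK. The number of the 4 genes called with the setting GC content and length correction was 0 in ketamine, 1 in E2+ketamine, 2 in E2+(2R,6R)-HNK, 2 in E2+(2S,6S)-HNK, 1 in ketamine against (2S,6S)-HNK, 2 in (2R,6R)-HNK against (2S,6S)-HNK, 1 in E2+ketamine against E2+(2S,6S)-HNK, 0 in E2+(2R,6R)-HNK against E2+(2S,6S)-HNK, 1 in interaction of (2R,6R)-HNK with E2. Of all 16004 genes the same fit called 7814 in ketamine, 8365 in E2+ketamine, 9487 in E2+(2R,6R)-HNK and 9047 in E2+(2S,6S)-HNK. Between compounds it called 6594 in ketamine against (2S,6S)-HNK, 7174 in (2R,6R)-HNK against (2S,6S)-HNK and 8926 in E2+ketamine against E2+(2S,6S)-HNK. It called 4747 in E2+(2R,6R)-HNK against E2+(2S,6S)-HNK and 6945 in the (2R,6R)-HNK interaction. With the setting GC content and length correction with the replicate block the log2 fold change had the opposite sign: for CSF1R it was -0.191 in E2, -0.186 in ketamine, -0.261 in (2R,6R)-HNK, -0.391 in E2+ketamine, 0.076 in ketamine against (2R,6R)-HNK, and for CD68 it was -0.197 in E2, -0.009 in ketamine, -0.132 in (2S,6S)-HNK, -0.214 in E2+ketamine, -0.047 in E2+(2R,6R)-HNK, -0.104 in E2+(2S,6S)-HNK, -0.11 in E2+ketamine against E2+(2S,6S)-HNK, and for TREM2 it was -0.146 in E2+(2S,6S)-HNK, -0.129 in E2+ketamine against E2+(2R,6R)-HNK, and for CSF1 it was -0.232 in (2S,6S)-HNK, -0.238 in E2+(2R,6R)-HNK, 0.107 in ketamine against (2R,6R)-HNK. The number of the 4 genes called with the setting GC content and length correction with the replicate block was 0 in ketamine, 1 in E2+ketamine, 2 in E2+(2R,6R)-HNK, 2 in E2+(2S,6S)-HNK, 1 in ketamine against (2S,6S)-HNK, 2 in (2R,6R)-HNK against (2S,6S)-HNK, 1 in E2+ketamine against E2+(2S,6S)-HNK, 0 in E2+(2R,6R)-HNK against E2+(2S,6S)-HNK, 1 in interaction of (2R,6R)-HNK with E2. Over all 16004 genes that setting called from 4744 (E2+(2R,6R)-HNK against E2+(2S,6S)-HNK) to 9467 (E2+(2R,6R)-HNK) in these comparisons. With the same setting 3 of the 4 genes, rather than 4, differed across the 8 conditions, beside 12426 of all 16004. With the setting counts halved the log2 fold change had the opposite sign: for CSF1R it was 0.002 in ketamine against (2R,6R)-HNK. The number of the 4 genes called with the setting groups compared only was 1 in ketamine against (2S,6S)-HNK. The share over all genes is not given for that setting, and it was 46.1% in the fit of all 16 libraries. Some fold changes gained a call. TREM2 in ketamine did so with upper-quartile scaling (0.828), no filter (0.755), halved counts (0.78) and the compared groups alone (0.772), CSF1 in (2S,6S)-HNK with upper-quartile scaling (0.284), CSF1R in E2+(2S,6S)-HNK with no filter (-0.727) and CSF1 in ketamine against (2S,6S)-HNK with the compared groups alone (0.227). The interaction of CD68 with (2S,6S)-HNK changed from -0.172 to 0.225 and gained a call with the GC content and length correction. Each library was left out in turn, with a lone library assumed to vary like the others. Of the 27 calls, 10 held in every such fit, 17 were lost in at least 1 and 0 changed sign. The log2 fold change ran from -0.157 to 0.199 for CSF1 in ketamine against (2R,6R)-HNK, from -0.121 to 0.356 for CSF1R in (2R,6R)-HNK, from -0.332 to 0.24 for CSF1R in ketamine against (2R,6R)-HNK, from -0.509 to 0.419 for TREM2 in E2+ketamine against E2+(2R,6R)-HNK, from -0.117 to 0.36 for CSF1R in E2+ketamine, from -0.073 to 0 for CD68 in E2+ketamine against E2+(2R,6R)-HNK, from -0.554 to 0.5 for TREM2 in E2+(2S,6S)-HNK, from -0.231 to 0.34 for CSF1R in ketamine, from -0.009 to 0.249 for TREM2 in ketamine against (2R,6R)-HNK, from -0.106 to 0.37 for CSF1R in E2, from -0.063 to 0.171 for CD68 in E2, from -0.076 to 0.158 for CD68 in E2+(2S,6S)-HNK, from -0.176 to 0.058 for CD68 in (2R,6R)-HNK. The number of genes called ran from 0 to 2 in (2R,6R)-HNK, from 0 to 1 in (2S,6S)-HNK, from 2 to 3 in E2+ketamine against E2+(2S,6S)-HNK, from 1 to 2 in E2+ketamine against E2+(2R,6R)-HNK, from 1 to 3 in E2+(2R,6R)-HNK, from 0 to 1 in E2+(2S,6S)-HNK, from 1 to 2 in ketamine, from 1 to 2 in interaction of (2S,6S)-HNK with E2. Over all 16004 genes the GC content and length correction changed the calls most in 3 comparisons, from 10007 to 6107 in E2, from 8647 to 4747 in E2+(2R,6R)-HNK against E2+(2S,6S)-HNK and from 10418 to 6446 in the (2S,6S)-HNK interaction. It changed them little in others, such as from 6009 to 5889 in the ketamine interaction and from 8325 to 8075 in E2+ketamine against E2+(2R,6R)-HNK, and raised them from 6959 to 7174 in (2R,6R)-HNK against (2S,6S)-HNK. AIF1, ITGAM, CX3CR1, P2RY12, TMEM119 and TYROBP did not pass the filter on low counts. With no filter none of them was called against vehicle by edgeR.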
